A study of Rattus norvegicus with 24 samples.

Results

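The genes described here are 41 genes that take up and burn fatty acids in heart muscle, from the membrane translocase Cd36 to the uncoupling proteins. They were chosen by name, with earlier results of these data known. Where several probes stand for a gene, the brightest over all arrays was used. A probe was named for 39 of the 41 genes, among 13337 named genes and 22523 probes. Acacb and Ehhadh had no probe named here and were not analysed.

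RNA came from left ventricle outside the infarct of 12 female rats (Sprague-Dawley, aged 3 months), taken 4 weeks after surgery. In 4 MI rats a coronary artery had been tied off and a placebo pellet implanted, and 4 MI+T4 rats had the same ligation and a pellet of 3.3 mg thyroxine (T4) made to release over 60 days. The 4 Sham rats had the operation with a loose suture and a placebo pellet. The ventricle was cut across its long axis, and RNA was taken from the basal slice of rats that had been kept for their infarct size, so the groups stand for infarcts within a set range. Each rat was measured on 2 arrays, one on each of 2 BeadChips, and a value given for a rat is the mean of its 2 arrays on a log2 scale.

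The adult heart draws most of its ATP from long-chain fatty acids. Lipoprotein lipase frees them at the vessel wall, Cd36 and binding proteins bring them into the cell, and acyl-CoA synthetases activate them. The carnitine shuttle then carries the acyl groups across the mitochondrial membranes, a step that malonyl-CoA inhibits at Cpt1. Inside the matrix the beta-oxidation spiral shortens them, and electron transfer flavoprotein passes the electrons on to the respiratory chain. Many of these genes are known targets of PPAR alpha and the estrogen-related receptors, and thyroid hormone is a known regulator of some, Pdk4 and Ucp3 among them.

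Cardiomyocyte markers were bright in all rats, with a mean level over 10 genes between 14.71 and 14.92, and Myh6, the alpha myosin heavy chain, lay between 15.93 and 16.21. The adipocyte markers Lep, Ucp1, Retn, Adipoq and Cidec stayed between 7.30 and 8.06, near the array medians of 7.81 to 7.82, while Cfd, the adipsin gene on the same list of 6, lay between 10.86 and 11.90. The arrays of a rat correlated at 0.997 to 0.998 over all probes, and arrays of different rats at a median of 0.992. In these tissue samples fewer cells of a type and less RNA per cell cannot be told apart.

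In MI compared with Sham, 11 of the 39 measured members fell and 1 rose at an adjusted p under 0.05. The 11 were Cpt1b, Slc25a20 and Crat of the carnitine shuttle, Mlycd, which removes malonyl-CoA, Hadha, Hadhb and Acaa2 of the spiral, Eci1 and Decr1, which prepare unsaturated fatty acids, Etfdh of electron transfer and the peroxisomal Acaa1a. The gene that rose was Ucp2. The members that fell were 28.2% of those measured, while 1.72% of all probes fell and 1.89% rose. Of the 11261 probes brighter than the median, which held all 11, 3.43% fell. The median log2 difference of the members was -0.25, against -0.00441 for all probes, and 32 of 39 were lower in MI. The paper lists Crat, Mlycd, Hadha and Ucp2 among its genes altered by MI, and also DCI, an earlier symbol of Eci1. As the members were chosen with earlier results known, these shares are a description.

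These calls came from a fit with both arrays of each rat, as the study's methods describe, with a common correlation of 0.243 between them. The members called in MI had a median correlation between paired arrays of 0.860 (range 0.534 to 0.957), far above the common one, and their SEs and p-values may be underestimated. When each rat counted as 1 mean, 0 of 39 members and 0 of 22523 probes passed, and the smallest adjusted p of a member was 0.196. On rat means 16 members (41.0%) were lower at an unadjusted p under 0.05, against 6.15% of all probes. Genes said here to have fallen or risen in MI share this limit.

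**Figure D1:**
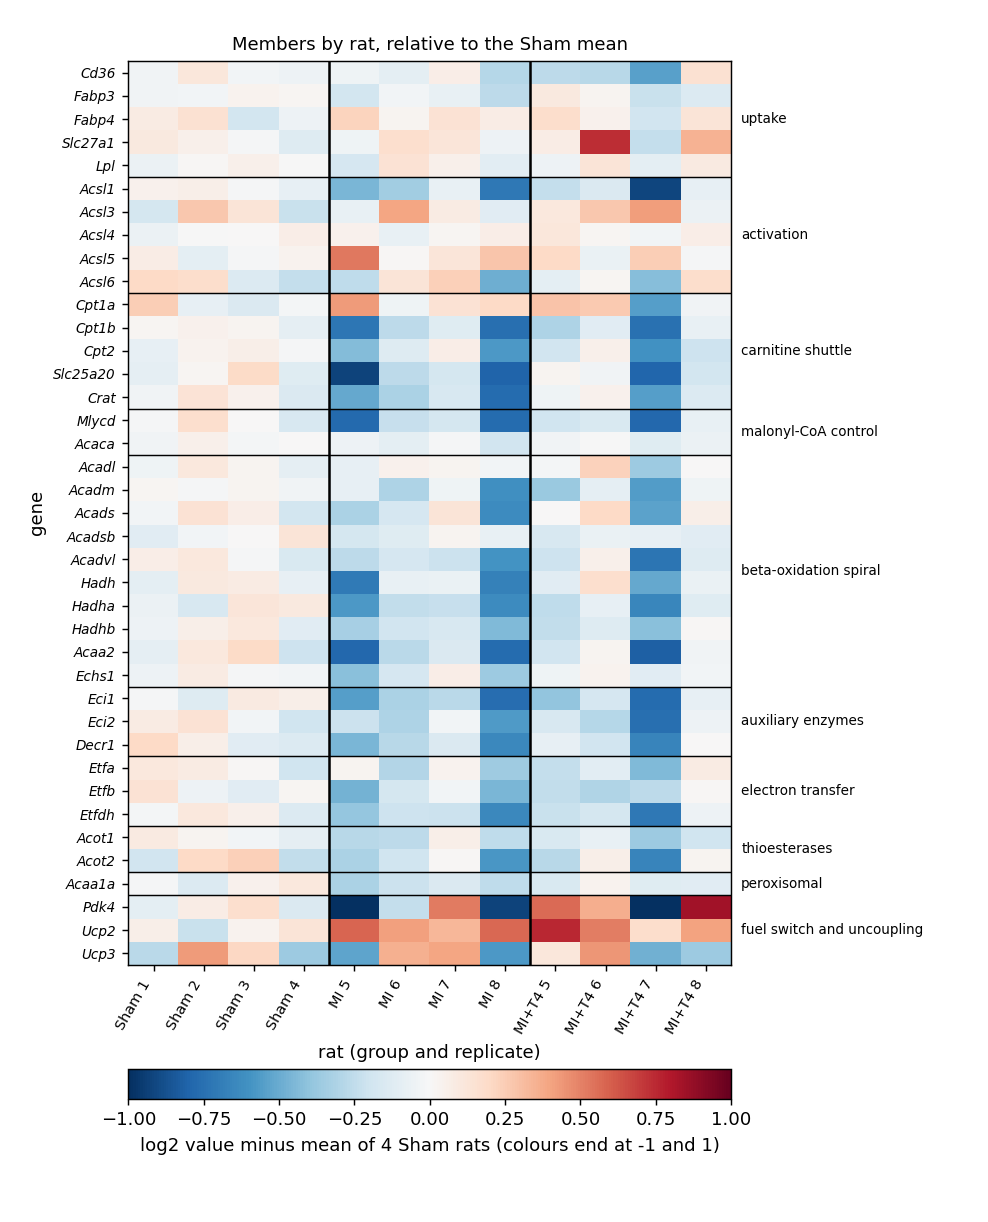
The 39 measured members (rows, by step) in each of the 12 rats (columns), as the log2 value minus the mean of the 4 Sham rats. Blue is lower and red higher than Sham, and the colours end at -1 and 1. MI 5, MI 8 and MI+T4 7 were the bluest columns, and uptake genes stayed pale in most rats.

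The fall was uneven among MI rats. In MI 5, 29 of the 39 members lay below all 4 Sham rats, in MI 8 30, in MI 6 25 and in MI 7 13. Of all named genes, 28.42%, 27.55%, 19.42% and 19.96% did so in the same rats. The median deviation of the members from the Sham mean was -0.31 in MI 5, -0.17 in MI 6, 0.01 in MI 7 and -0.49 in MI 8. By this median over all members MI 5 and MI 8 were the lowest MI rats and MI 7 was near the Sham mean. Within the steps MI 7 had medians of -0.12 for the shuttle and -0.15 for the auxiliary enzymes. Its medians were -0.06 for the spiral, -0.03 for electron transfer, 0.07 for uptake and 0.08 for activation. Both arrays of a rat gave a similar value, for example -0.47 and -0.51 in MI 8.

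MI+T4 rats were also uneven. In MI+T4 7, 33 members lay below all Sham rats, compared with 19 in MI+T4 5, 10 in MI+T4 6 and 8 in MI+T4 8. Of all named genes, 25.57% did so in MI+T4 7 and 22.43%, 20.14% and 20.75% in MI+T4 5, 6 and 8. The median deviation was -0.11 in MI+T4 5, 0.02 in MI+T4 6, -0.51 in MI+T4 7 and -0.04 in MI+T4 8. MI+T4 7 was the lowest of all 12 rats on this measure.

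Fibroblast markers were highest in MI 5, MI 8 and MI+T4 7, the rats in which the members were lowest. The median deviation of the fibroblast markers from the Sham mean was 1.19 in MI 5, 0.24 in MI 6, -0.05 in MI 7 and 1.18 in MI 8. In the MI+T4 rats it was 0.32, 0.13, 0.93 and -0.17 for replicates 5 to 8. In MI+T4 6 and MI+T4 8 it had the same sign as the median of the members. Of 10 fibroblast markers 4 rose in MI, and the mean level of the list lay between 11.64 and 12.17 in Sham, 11.89 and 13.05 in MI and 11.62 and 12.66 in MI+T4. In MI+T4 compared with Sham 3 of the 10 rose, Pdgfra, Pi16 and Cd248. Of 4 atrial markers 3 rose in MI and 2 in MI+T4 compared with Sham, Nppa and Pam, with a mean level of 10.86 to 12.56 in Sham, 12.21 to 13.37 in MI and 11.99 to 13.78 in MI+T4. Of 7 macrophage markers 0 passed, with a mean level of 9.09 to 9.66 in Sham, 9.53 to 9.996 in MI and 9.30 to 9.97 in MI+T4. The paper lists Nppa, Pam and Dkk3 of the atrial list among its genes altered by MI in non-infarcted ventricle. Whether these markers follow the amount of atrial tissue was not tested. The part of fibroblasts, macrophages and atrial cells in the fall of the members was not tested either. Of 10 cardiomyocyte, 7 endothelial and 6 adipocyte markers 0 passed in MI. Several cardiomyocyte markers lay near the highest value of any probe, 16.47, where a change may not show.

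**Figure D2:**
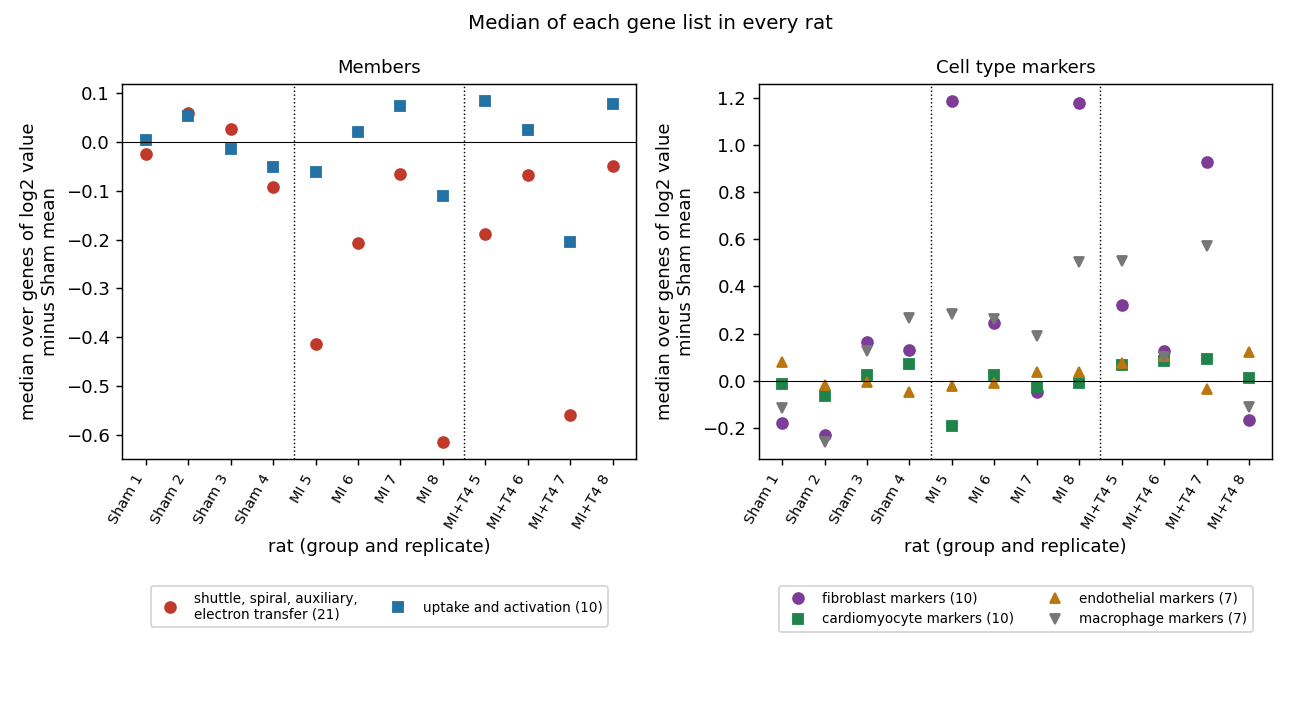
Median over the genes of a list of the log2 value minus the Sham mean, in each rat. The left panel shows 21 members of the shuttle, spiral, auxiliary enzymes and electron transfer (circles) and 10 of uptake and activation (squares). The right panel shows cell type markers. MI 5, MI 8 and MI+T4 7 lay lowest for the 21 members and highest for fibroblast markers.

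Uptake genes did not pass in MI. Cd36, the membrane translocase, was 14.29, 14.44, 14.30 and 14.28 in Sham 1 to 4, 14.29, 14.23, 14.40 and 14.05 in MI 5 to 8, and 14.07, 14.05, 13.79 and 14.48 in MI+T4 5 to 8. The groups overlapped, and MI+T4 held both the highest and the lowest rat. The log2 difference of MI from Sham was -0.09 (SE 0.09, adjusted p = 0.783). Fabp3, the binding protein of heart muscle, had means of 16.03 ± 0.03 in Sham, 15.89 ± 0.11 in MI rats and 15.97 ± 0.15 in MI+T4 (SD, n = 4 rats). Its signals lay near the top of the scale, where the highest value of any probe was 16.47. Lpl, the lipoprotein lipase, was also near the top, at 15.96 to 16.08 in Sham, 15.85 to 16.17 in MI and 15.92 to 16.15 in MI+T4. Fabp4, which endothelium, adipocytes and macrophages make, had means of 14.24, 14.36 and 14.28, and Slc27a1, a fatty acid transport protein, 9.90, 9.95 and 10.14. In Slc27a1 the spread between MI+T4 rats was wide, with 10.65 in MI+T4 6 and 9.67 in MI+T4 7.

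Of the 5 long-chain acyl-CoA synthetases 0 passed in MI, and the largest difference was in Acsl1, the form that predominates in heart. Acsl1 was 14.09, 14.11, 14.04 and 13.96 in Sham 1 to 4 and 13.60, 13.70, 13.97 and 13.34 in MI 5 to 8. MI 7 was within the Sham range and the other 3 were under it. The log2 difference was -0.40 (SE 0.12, adjusted p = 0.0580). Acsl5, a form of other tissues such as gut and liver, had a difference of 0.23 in the opposite direction (SE 0.08, adjusted p = 0.126). Acsl3, Acsl4 and Acsl6 had Sham means of 8.86, 8.55 and 9.13 and differences in MI of 0.07, 0.01 and -0.09.

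Of 5 shuttle genes 3 fell in MI. Cpt1b, the muscle form of the carnitine palmitoyltransferase that commits fatty acids to oxidation, was 12.28, 12.31, 12.29 and 12.17 in Sham 1 to 4 and 11.54, 12.0007, 12.14 and 11.51 in MI 5 to 8. All MI rats lay below all Sham rats, MI 7 by a small margin. Cpt1b fell by 0.46 (SE 0.12, adjusted p = 0.0213), to 0.725 times the Sham level. Slc25a20, the carrier that exchanges acylcarnitine for carnitine across the inner membrane, was 11.94, 12.06, 12.23 and 11.92 in Sham and 11.11, 11.78, 11.86 and 11.24 in MI. It fell by 0.54 (SE 0.13, adjusted p = 0.0201), to 0.687 times. MI 5 and MI 8 were far below MI 6 and MI 7 in both genes. Crat, which buffers acetyl-CoA as acetylcarnitine, was 11.61, 11.79, 11.70 and 11.51 in Sham rats and 11.14, 11.34, 11.49 and 10.88 in MI. Crat fell by 0.44 (SE 0.10, adjusted p = 0.0137), with no overlap between the groups. A second Crat probe had a mean of 7.40, under the array medians, and a difference of -0.0012.

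The other 2 shuttle genes did not pass. Cpt1a, the liver form, which the muscle form outweighs in adult heart, had means of 10.22 ± 0.17 in Sham, 10.40 ± 0.19 in MI rats and 10.21 ± 0.39 in MI+T4 (SD, n = 4 rats). Its log2 difference in MI was 0.18 (adjusted p = 0.566), the opposite sign to that of Cpt1b, and the difference between the genes was not tested. Cpt2, on the inner membrane, had means of 13.79 ± 0.06, 13.53 ± 0.29 and 13.56 ± 0.27.

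Mlycd, the malonyl-CoA decarboxylase, was 12.61, 12.79, 12.63 and 12.46 in Sham and 11.85, 12.40, 12.45 and 11.86 in MI. MI 7 lay just under Sham 4. Mlycd fell by 0.49 (SE 0.12, adjusted p = 0.0183), to 0.713 times the Sham level. Acaca, an acetyl-CoA carboxylase that makes malonyl-CoA, had means of 7.79, 7.71 and 7.74 in Sham, MI and MI+T4, near the array medians.

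**Figure D3:**
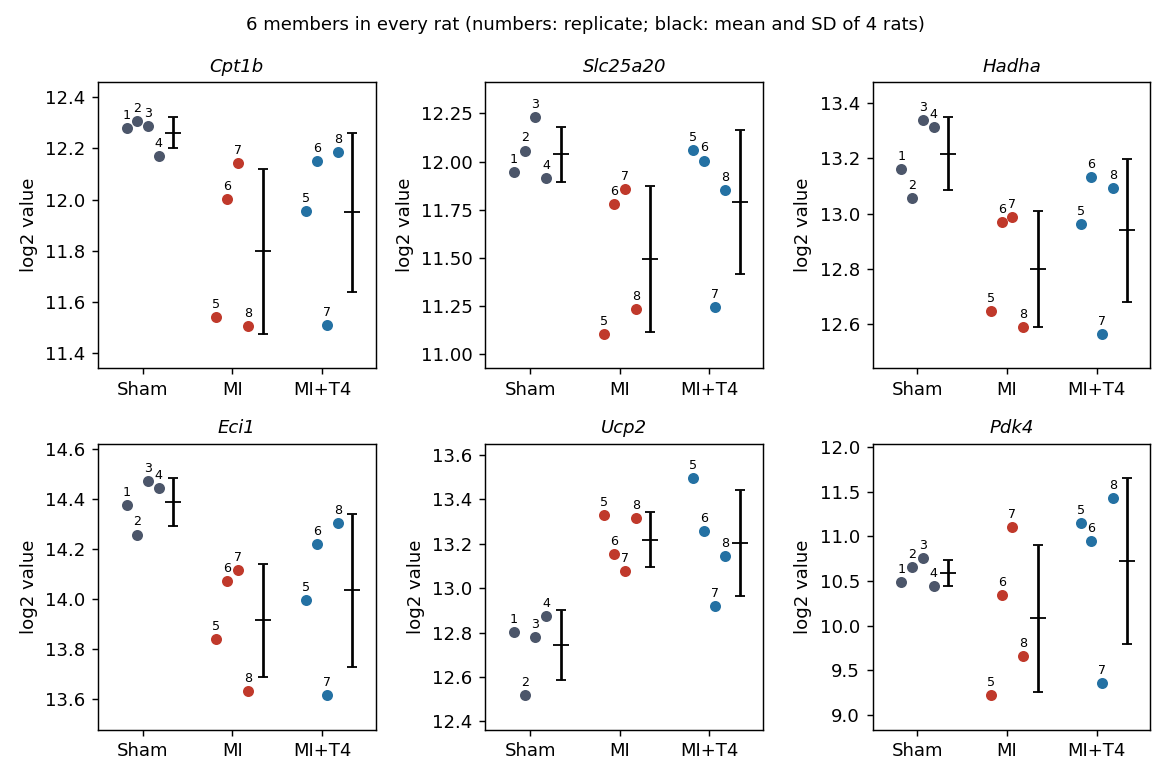
Log2 values of Cpt1b, Slc25a20, Hadha, Eci1, Ucp2 and Pdk4 in each rat, with replicate numbers at the points and the mean and SD of 4 rats in black (the axes do not start at 0). For Cpt1b, Slc25a20, Hadha and Eci1 all MI rats lay below all Sham rats, for Ucp2 all lay above, and Pdk4 was widely spread in MI and MI+T4.

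In the spiral all 10 genes were lower in MI, and 3 of them fell. Hadha and Hadhb are the alpha and beta subunits of the trifunctional protein, which carries out the last steps of the spiral on long chains. Hadha was 13.16, 13.06, 13.34 and 13.31 in Sham and 12.65, 12.97, 12.99 and 12.59 in MI, and fell by 0.42 (SE 0.09, adjusted p = 0.0116). Hadhb was 15.26, 15.37, 15.41 and 15.20 in Sham and 14.98, 15.12, 15.15 and 14.87 in MI, and fell by 0.28 (SE 0.08, adjusted p = 0.0342). In both genes all MI rats lay below all Sham rats. The 2 genes lie head to head on chromosome 6 of the GRCr8 assembly, Hadhb on the minus strand and Hadha on the plus strand, and the stretch between their annotated starts is 243 bases long. It is shown because both subunits fell, read 5′ to 3′ on the plus strand from chr6:31907558-31907800 (RefSeq).

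Hadhb-Hadha: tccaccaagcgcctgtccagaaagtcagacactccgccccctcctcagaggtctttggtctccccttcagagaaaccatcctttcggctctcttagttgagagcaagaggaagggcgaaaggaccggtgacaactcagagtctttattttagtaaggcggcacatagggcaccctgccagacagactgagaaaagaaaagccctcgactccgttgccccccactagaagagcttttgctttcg

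The letters AGGTCA, the core that nuclear receptors such as PPAR, ERR and thyroid hormone receptors bind, do not occur in this stretch on either strand. No other motif was searched.

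Acaa2, the mitochondrial thiolase, was 13.88, 14.07, 14.16 and 13.75 in Sham and 13.18, 13.70, 13.82 and 13.20 in MI. MI 7 lay within the Sham range. Acaa2 fell by 0.49 (SE 0.14, adjusted p = 0.0367), to 0.711 times the Sham level.

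The acyl-CoA dehydrogenases, which take the first step of each turn, did not pass. Acadm, for medium chains, was 15.36, 15.34, 15.37 and 15.31 in Sham 1 to 4, 15.27, 15.03, 15.30 and 14.73 in MI 5 to 8, and 14.97, 15.25, 14.78 and 15.30 in MI+T4 5 to 8. All 8 infarcted rats lay below the 4 Sham rats, but MI 5, MI 7 and MI+T4 8 were close to them. The log2 difference in MI was -0.26 (SE 0.09, adjusted p = 0.118). Acadvl, for very long chains, lay between 13.61 and 13.87 in Sham and between 13.17 and 13.60 in MI, a difference of -0.31 (SE 0.10, adjusted p = 0.0980). Acads, for short chains, had a difference of -0.25 and Acadsb, for branched chains and with a signal near the array medians, of -0.09. Acadl, for long chains, had means of 15.75 ± 0.09 in Sham, 15.74 ± 0.06 in MI rats and 15.71 ± 0.24 in MI+T4 (SD, n = 4 rats). Its values, 15.39 to 15.98 over the rats, lay towards the highest value of any probe, 16.47, where a change may not show. The hydroxyacyl dehydrogenase Hadh and the hydratase Echs1 had differences of -0.38 (SE 0.12, adjusted p = 0.0740) and -0.22 (SE 0.07, adjusted p = 0.0727).

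Eci1, an isomerase that moves the double bonds of unsaturated fatty acids into place, had the smallest adjusted p among the members that fell. It was 14.38, 14.26, 14.47 and 14.44 in Sham and 13.84, 14.07, 14.12 and 13.63 in MI, a clear gap between the groups. Eci1 fell by 0.47 (SE 0.10, adjusted p = 0.00622), to 0.720 times the Sham level. Decr1, the dienoyl-CoA reductase, was 13.74, 13.60, 13.43 and 13.40 in Sham and 13.09, 13.27, 13.39 and 12.90 in MI, and fell by 0.38 (SE 0.10, adjusted p = 0.0355). MI 7 was just under the lowest Sham rat. The related isomerase Eci2 had a difference of -0.28 (adjusted p = 0.163) and overlapping groups. Promoter sequences were matched for 34 of the 41 members. In the 250 bases before the start, AGGTCA or its reverse complement TGACCT stood in 6 of these 34 and in 14.06% of all 33469 promoters of the same table. Eci1 was one of the 6, and its stretch is shown for that reason, with the match in capitals (plus strand, chr10:13961000-13961249, GRCr8, RefSeq).

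Eci1: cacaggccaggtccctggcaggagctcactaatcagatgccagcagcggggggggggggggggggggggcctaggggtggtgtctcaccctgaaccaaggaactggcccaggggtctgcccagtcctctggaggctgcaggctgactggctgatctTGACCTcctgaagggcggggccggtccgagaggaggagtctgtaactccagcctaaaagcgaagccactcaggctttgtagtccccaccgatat

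The other 5 were Acacb, which was not measured, and Acadvl, Echs1, Slc27a1 and Ucp3, of which 0 were called in MI. Lpl, Fabp4, Acaca, Acadl, Cpt1b, Acaa2 and Decr1 had no promoter sequence here and were not searched. Of these, Cpt1b, Acaa2 and Decr1 fell in MI. A match is a description of letters only.

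Etfdh, the dehydrogenase that hands electrons from the flavoprotein to ubiquinone, was 13.05, 13.17, 13.11 and 12.93 in Sham and 12.68, 12.86, 12.85 and 12.42 in MI. It fell by 0.36 (SE 0.10, adjusted p = 0.0480), close to the threshold. Of the flavoprotein subunits, Etfa lay between 12.81 and 13.11 in Sham and 12.65 and 13.04 in MI (adjusted p = 0.511). Etfb had means of 8.79 ± 0.11 in Sham and 8.50 ± 0.22 in MI (SD, n = 4 rats, adjusted p = 0.0699). The thioesterases Acot1, of the cytosol, and Acot2, of the mitochondrion, which release free fatty acids from acyl-CoA, had MI means of 7.81 and 8.58, against Sham means of 7.99 and 8.85, and did not pass. Acaa1a, a peroxisomal thiolase, was 11.47, 11.34, 11.52 and 11.59 in Sham and 11.16, 11.26, 11.33 and 11.22 in MI. The fall of 0.24 was small (SE 0.05, adjusted p = 0.0113), and MI 7 was just below Sham 2. Rats have a close relative, Acaa1b, and whether the probe separates these genes was not tested.

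Ucp2 was the only member called higher in MI. This uncoupling protein of the inner mitochondrial membrane is made by many cell types, macrophages among them. It was 12.80, 12.52, 12.78 and 12.88 in Sham 1 to 4, 13.33, 13.15, 13.08 and 13.32 in MI 5 to 8, and 13.49, 13.26, 12.92 and 13.14 in MI+T4 5 to 8. All 8 infarcted rats lay above all Sham rats, and MI+T4 7 was the closest to them. Macrophage markers had median deviations from Sham of 0.28, 0.26, 0.19 and 0.50 in MI 5 to 8 and 0.51, 0.10, 0.57 and -0.11 in MI+T4 5 to 8. The Sham rats themselves ranged from -0.26 to 0.27 for these markers. The part of macrophages in the level of Ucp2 was not tested. Ucp2 rose by 0.48 in MI (SE 0.08, adjusted p = 0.00116), to 1.39 times the Sham level, and on rat means the adjusted p was 0.196. The related Ucp3, the form of skeletal muscle and heart, did not pass, with a difference of -0.09 (SE 0.19, adjusted p = 0.930). Ucp3 was 8.17, 8.86, 8.64 and 8.08 in Sham, 7.91, 8.80, 8.83 and 7.87 in MI, and 8.55, 8.88, 7.96 and 8.07 in MI+T4. Each group held rats near 8 and rats near 8.8. The difference between Ucp2 and Ucp3 was not tested. The 2 genes are neighbours on chromosome 1, in the same orientation, and the 250 bases before each start are shown because Ucp2 rose and Ucp3 was not called (plus strand, chr1:164251123-164251372 and chr1:164227660-164227909, GRCr8, RefSeq). Capitals mark AGGTCA, which stands 2 times before Ucp3 and 0 times before Ucp2.

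Ucp2: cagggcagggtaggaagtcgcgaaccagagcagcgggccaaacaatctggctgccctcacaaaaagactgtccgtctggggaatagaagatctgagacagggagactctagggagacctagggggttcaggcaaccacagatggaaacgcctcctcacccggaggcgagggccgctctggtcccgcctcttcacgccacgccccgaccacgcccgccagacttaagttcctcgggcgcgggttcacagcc
Ucp3: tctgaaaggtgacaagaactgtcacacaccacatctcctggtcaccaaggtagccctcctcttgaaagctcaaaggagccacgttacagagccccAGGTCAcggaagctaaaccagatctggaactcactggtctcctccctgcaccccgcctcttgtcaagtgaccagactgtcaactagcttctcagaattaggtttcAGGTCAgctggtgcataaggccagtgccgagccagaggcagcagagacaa

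Pdk4, the kinase that shuts pyruvate dehydrogenase and so spares glucose, had the widest spread of all members. It was 10.49, 10.66, 10.75 and 10.44 in Sham, 9.22, 10.35, 11.11 and 9.66 in MI, and 11.15, 10.95, 9.36 and 11.43 in MI+T4. MI 5, MI 8 and MI+T4 7 were low, while MI 7 and the other 3 MI+T4 rats were above all Sham rats. The log2 difference in MI was -0.50 (SE 0.29, adjusted p = 0.490).

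In 12 members all MI rats lay below all Sham rats (30.8%), compared with 3.17% of all probes, and in 1 all lay above, compared with 2.63%. Besides 10 of the 11 members that fell, these 12 were Acadm and Acadvl. The 21 genes of the shuttle, spiral, auxiliary enzymes and electron transfer correlated with each other at a median r of 0.772 over the 12 rats. The 10 uptake and activation genes did so at 0.178. Of these, Fabp3 and Lpl lay near the top of the scale, and Acsl3, Acsl4, Acsl5 and Acsl6 had means of 8.57 to 9.22. The part of signal range in the lower correlation was not tested. The rats of all groups and the normalization are shared by these correlations, which are a description. The median deviation of the 21 genes was -0.41 in MI 5 and -0.62 in MI 8, and that of the 10 genes -0.06 and -0.11.

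The count of calls in MI changed when single rats were left out, which also lowers the number of rats. Leaving out MI 8 left 1 member called (Ucp2) and leaving out MI 5 left 2 (Ucp2 and Eci1). Without Sham 2 or Sham 3 there were 4 calls each, without Sham 1 there were 7 and without Sham 4 there were 10. Leaving out MI 6 gave 15 calls and MI 7 gave 21, and leaving out 1 MI+T4 rat gave 11 to 16. Ucp2 was called in each of these fits. Without MI 5, MI 8 and MI+T4 7 together, an alternative chosen after values of these data were known, Ucp2 alone passed and the median of the members was -0.07.

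In MI+T4 compared with MI, 0 of 39 members passed, as did 0% of all probes, with the limma fit on both arrays. The paper reports genes that T4 altered compared with MI, after a detection filter and with a moderated F. The fit used here had neither. At an unadjusted p under 0.05 this fit gave 6 members, all higher with T4, against 3.74% of all probes. On rat means 1 member, Acaa1a, was under it, against 5.45% of all probes. The median log2 difference of the members was 0.06, and 28 of 39 were higher in MI+T4. The MI rats enter both this comparison and the one with Sham, so the values of the 2 comparisons are not independent.

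The largest differences with T4 were in Pdk4, Slc25a20, Crat and Hadh. Pdk4 was higher by 0.64 (SE 0.29, adjusted p = 0.639), with MI+T4 7 among the lowest rats. Slc25a20 was 12.06, 12.01, 11.25 and 11.85 in MI+T4 5 to 8, a difference of 0.30 from MI (SE 0.13, adjusted p = 0.631). Crat was 11.61, 11.70, 11.10 and 11.52, a difference of 0.27 (SE 0.10, adjusted p = 0.492). Hadh was 13.32, 13.60, 12.92 and 13.36, against 12.72, 13.36, 13.37 and 12.75 in MI, a difference of 0.25 (SE 0.12, adjusted p = 0.662). In Slc25a20, Crat and Hadh 3 MI+T4 rats were in or near the Sham range and MI+T4 7 was with the low MI rats, so the groups overlapped. Cpt1b was 11.96, 12.15, 11.51 and 12.18 in MI+T4, a difference of 0.15 from MI (SE 0.12, adjusted p = 0.864). Cd36 differed by -0.15 (SE 0.09, adjusted p = 0.791), Acadm by -0.0030 (SE 0.09, adjusted p = 0.998), Ucp2 by -0.02 (SE 0.08, adjusted p = 0.990) and Ucp3 by 0.01 (SE 0.19, adjusted p = 0.998). Without MI 7 the hydratase Echs1 passed (0.28, adjusted p = 0.0329), and it was chosen for naming after its value was seen.

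**Figure D4:**
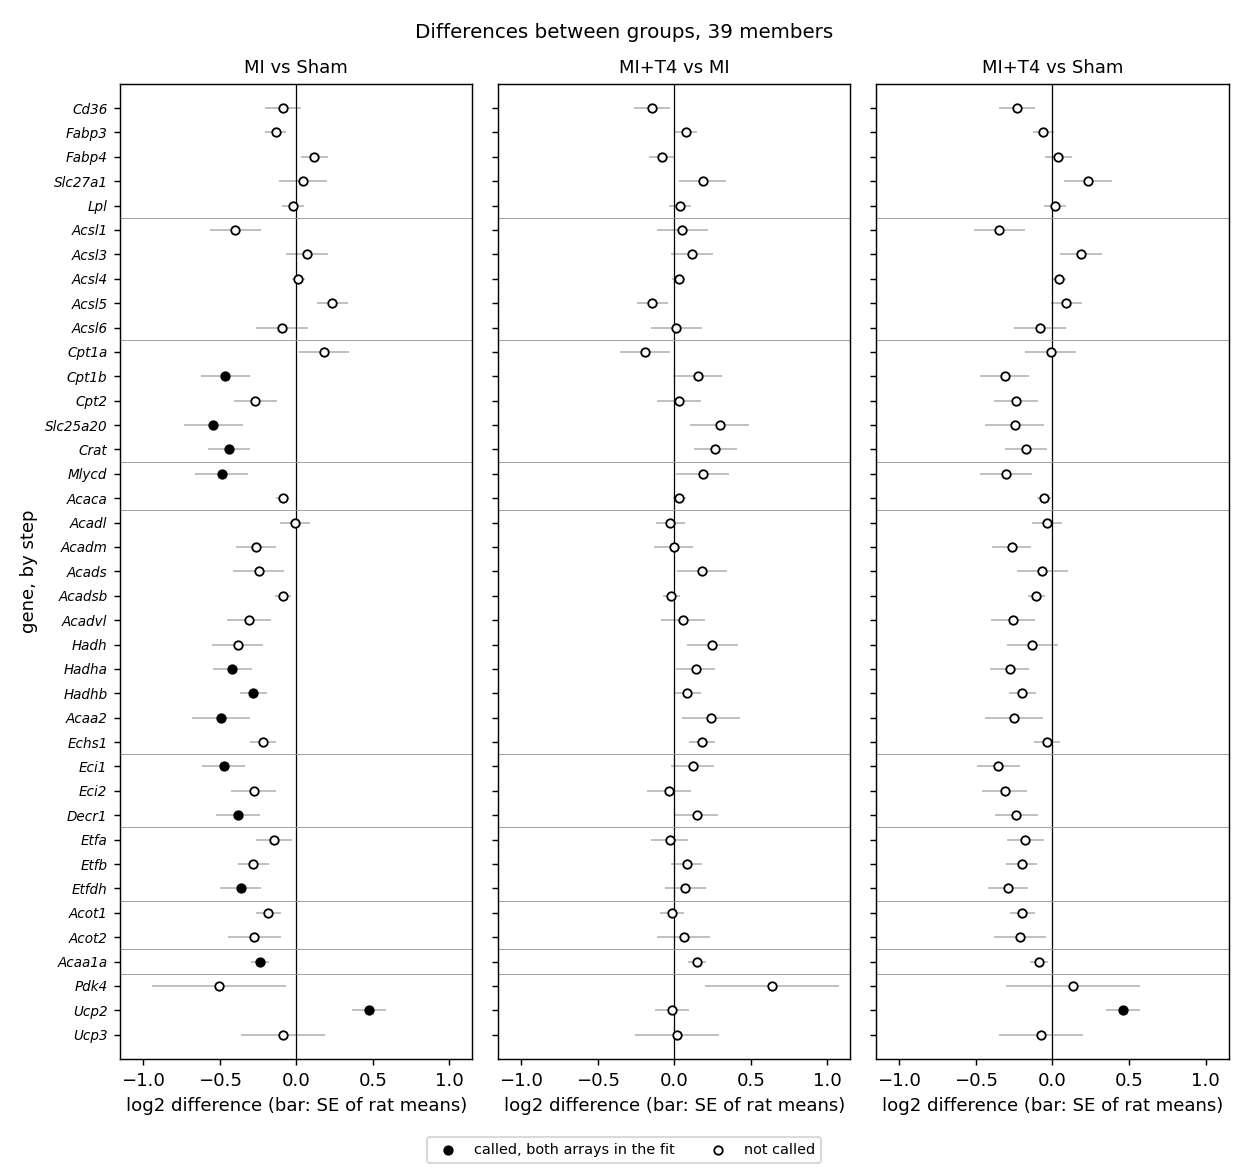
Log2 differences of the 39 members for the 3 pairs of groups (points, one panel a pair), with the SE of the fit on rat means (bars). Filled points passed in the fit with both arrays, 12 for MI against Sham, 0 for MI+T4 against MI and 1 for MI+T4 against Sham.

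In MI+T4 compared with Sham, 1 member was called, Ucp2, and it was higher. Among all probes 0.719% were called higher and 0.537% lower. Ucp2 rose by 0.46 (SE 0.08, adjusted p = 0.00216), to 1.37 times the Sham level, with no overlap, and on rat means the adjusted p was 0.299. No shuttle, spiral or auxiliary gene passed. The median of the members was -0.17 and 31 of 39 were lower than Sham. Fibroblast and atrial markers were also called higher in this comparison (3 of 10 and 2 of 4), and their part was not tested. Eci1 was 14.00, 14.22, 13.62 and 14.30 in MI+T4, a difference of -0.35 (SE 0.10, adjusted p = 0.0733). Acsl1 was 13.81, 13.90, 13.13 and 13.97, a difference of -0.35 (SE 0.12, adjusted p = 0.192), and Eci2 11.98, 11.85, 11.38 and 12.09, a difference of -0.31 (SE 0.11, adjusted p = 0.179). In the 3 genes MI+T4 7 was the lowest MI+T4 rat and MI+T4 8 was within the Sham range.

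Smaller differences from Sham were found in other members. Cpt1b differed by -0.31 (SE 0.12, adjusted p = 0.262), Acadm by -0.27 (SE 0.09, adjusted p = 0.194), Cd36 by -0.23 (SE 0.09, adjusted p = 0.288), Pdk4 by 0.14 (SE 0.29, adjusted p = 0.962) and Ucp3 by -0.07 (SE 0.19, adjusted p = 0.972). Acadm was the only member in which all MI+T4 rats lay below all Sham rats, a pattern that 2.44% of all probes had. Without MI+T4 8, 5 members passed: Ucp2, Cd36, Eci1, Eci2 and Hadhb. Without MI 5, MI 8 and MI+T4 7 together 3 passed, Ucp2, Slc27a1 and Pdk4, and all 3 were higher.

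Other genes of fatty acid metabolism were taken from a list of 63, of which 49 were measured. In MI 8 of them fell and 1 rose. Acad11, an acyl-CoA dehydrogenase, fell by 0.37 in MI (SE 0.06, adjusted p = 0.000642) and by 0.40 in MI+T4 compared with Sham (SE 0.06, adjusted p = 0.000345). It was 10.85 to 11.10 in Sham rats, 10.57 to 10.69 in MI rats and 10.38 to 10.67 in MI+T4 rats. In contrast to Cpt1b or Eci1, its 4 MI rats were close together, MI 7 included. Hsd17b4, the peroxisomal multifunctional enzyme, fell by 0.33 in MI (SE 0.08, adjusted p = 0.0183), and Pecr, a peroxisomal enoyl-CoA reductase, by 0.38 (SE 0.09, adjusted p = 0.0193). Nudt19, a peroxisomal hydrolase of CoA, rose by 0.47 in MI (SE 0.12, adjusted p = 0.0275), with 9.58 to 9.85 in MI, 8.90 to 9.56 in Sham and 8.89 to 9.61 in MI+T4. In MI+T4 compared with Sham 2 of the 49 fell, Acad11 and Got2, the mitochondrial aspartate aminotransferase, by 0.29 (SE 0.08, adjusted p = 0.0475).

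Of 15 measured enzymes of the tricarboxylic acid cycle, which burns the acetyl-CoA that the spiral yields, 3 fell in MI. They were Sdha, by 0.24 (SE 0.07, adjusted p = 0.0389), Cs, by 0.28 (SE 0.08, adjusted p = 0.0444), and Suclg1, by 0.28 (SE 0.08, adjusted p = 0.0451). In each of the 3 genes MI 7 lay within the Sham range. Idh2 was the 1 gene of the cycle that fell in MI+T4 compared with Sham, by 0.31 (SE 0.08, adjusted p = 0.0428). The median difference of the 15 genes in MI was -0.20, compared with -0.25 for the members. Of 17 measured genes of glycolysis 0 fell and 2 rose in MI. Pfkl and Pfkp, the liver and platelet forms of phosphofructokinase, rose by 0.39 (SE 0.08, adjusted p = 0.00611) and 0.38 (SE 0.09, adjusted p = 0.0134), and the median of the 17 genes was -0.10. With 1 mean per rat 0 genes of these lists passed.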

How the data were processed

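RNA of 12 rats was hybridized to Illumina RatRef-12 BeadChips, 2 arrays per rat. Before deposit the authors transformed the signals to stabilize their variance and normalized the arrays by robust splines, and the deposited values are read as log2 because the methods call the transformation similar to log2. The table gives no scale itself. A table of non-normalized signals with 48 columns named by BeadChip position was not used, because nothing pairs a column with a sample, so the study's detection filter and any detection p-value could not be applied. The values lay between 6.88 and 16.47.

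Probes were named through the array annotation and RefSeq, and 13793 of 22523 had 1 symbol. Under R 4.3.3, limma 3.58.1 fitted a model with 3 group means to each probe, with duplicateCorrelation (statmod 1.5.0) over the arrays of a rat, then eBayes. The Benjamini-Hochberg adjustment ran over all probes of a comparison, at 5%. SEs are those of this fit and SDs are over 4 rats. With 2 arrays per rat, the number of rats, 4 in each group, limits the precision. The same model was fitted to 1 mean per rat. The pipeline was tested on simulated data. The study's methods test by a moderated F, which was run as an alternative.

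The members and lists were chosen with earlier results of these data known. Named with full statistics were members called in any comparison, the 4 largest differences of each comparison and Cd36, Cpt1b, Acadm, Pdk4, Ucp2 and Ucp3, and from each other metabolic list up to 4 called genes per comparison by smallest p. Alternatives were rat means, each array alone, the technical replicate as block, only the compared groups, a trended and robust prior, quantile normalization, centring on brighter probes, brighter probes only, nested F, adjustment over 3 comparisons, all probes of a gene averaged, each rat left out, a replicate block, and 3 rats left out together.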

Additional observations from a re-analysis of the deposited data

Results flagged for a closer look

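Each member was examined in each group of 4 rats for a rat far from the other 3, by Dixon's ratio of the gap to the range with the usual limit for 4 values. Of 117 such groups 3 passed, fewer than the 1 in 20 that chance flags. Cd36 in Sham 2 was 14.44, above the other Sham rats at 14.28 to 14.30. Etfb in MI+T4 8 was 8.80, above the other MI+T4 rats at 8.49 to 8.54. Acot1 in MI 7 was 8.05, above the other MI rats at 7.71 to 7.74.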

How the results depend on the processing

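In MI vs Sham 12 members were called. On rat means and with the arrays of technical replicate 1 or 2 alone 0 were called, by nested F 6, and without MI 5, MI 8 and MI+T4 7 together, chosen after values of these data were known, 1. Leaving out 1 rat at a time gave 1 to 21. In MI+T4 vs Sham 1 member was called, 0 on rat means and with either array alone, 2 by nested F (Ucp2 and Eci1), 3 without the 3 rats, and 1 to 5 with 1 rat left out (2 without MI 8). In MI+T4 vs MI 0 were called, or 0 to 1 with 1 rat left out. The cause of these changes was not tested. The other 7 alternatives gave between 10 and 14 calls in MI vs Sham, except adjustment over the 3 comparisons together, which left 8. Medians of the members kept their sign in all alternatives, and ranged with 1 rat left out from -0.32 to -0.17 in MI vs Sham, from 0.02 to 0.15 in MI+T4 vs MI and from -0.22 to -0.06 in MI+T4 vs Sham. No called difference changed its direction.

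MI and MI+T4 rats share replicate numbers. The deviations of rats of the same number correlated at 0.11, 0.25, -0.53 and -0.48, and those of different numbers at -0.32 to 0.55. These values show no pairing by number, but with 4 rats in each group they cannot exclude it. With the replicate block on rat means 0 members were called in MI+T4 vs MI, and the smallest adjusted p was 0.986. Members near the array medians, such as Acaca, Acadsb and Acot1, can show little change at this signal.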
